A study of Mus musculus with 6 samples.

Results

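The liver builds very low density lipoprotein (VLDL), takes lipoprotein remnants and high density lipoprotein (HDL) cholesterol back up, and exports sterol to the blood and the bile. The genes described here are 10 genes of these steps, chosen by symbol: Mttp, which loads lipid onto apolipoprotein B; the lipases Lpl and Lipc and the cholesterol-esterifying enzyme Lcat; the VLDL receptor Vldlr and the HDL receptor Scarb1; and the ATP-driven sterol exporters Abca1, Abcg1, Abcg5 and Abcg8. All 10 were found among the 40803 mouse genes of the count table, and all 10 passed the filter on low counts that left 16327 genes for testing. Liver RNA was sequenced from 6 male C57BL/6J mice, 3 given rAAV8-sh-scramble and 3 given rAAV8-sh-Hnf1aos1, with 1 library per mouse. The mice were about 6 weeks old at injection, were fed normally, and their livers were collected 4 weeks later. Every mouse carried a recombinant adeno-associated virus of serotype 8 with a U6 promoter, which is active in most cell types, driving a short hairpin, and an EGFP reporter. The hairpin was scrambled in the control group, and in the knockdown group it was directed at exon 1 of the lncRNA Hnf1aos1.

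The 10 genes divide into a secretion arm, a plasma remodelling arm, an uptake arm and an export arm. Mttp acts in the endoplasmic reticulum of hepatocytes. Lpl hydrolyses the triglyceride of circulating lipoproteins, mainly in muscle and adipose tissue, and adult liver holds little of it, while Lipc is the lipase that the liver itself secretes, and Lcat turns free cholesterol on HDL into cholesteryl ester. Vldlr binds lipoproteins rich in apolipoprotein E and is low in healthy liver, and Scarb1 takes cholesteryl ester from HDL. Abca1 passes cholesterol and phospholipid to lipid-poor apolipoprotein A-I, Abcg1 passes cholesterol to formed HDL, and the proteins of Abcg5 and Abcg8 work as a pair that moves sterol into bile. Abca1, Abcg1, Abcg5, Abcg8 and Lpl are known targets of the liver X receptors (LXR), nuclear receptors that sense oxysterols.

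Counts over mouse genes summed to 14704746 to 16532510 per library in the scramble group and to 18021614 to 19462398 in the knockdown group, so every knockdown library was the deeper. The 10 genes took 0.153 to 0.158% of the counts in the scramble and 0.164 to 0.178% in the knockdown libraries. Abca1 gave the most of these counts in every library, so the share follows this gene above all. It had 8305 to 9886 of 22539 to 26121 in the scramble and 13764 to 15434 of 31921 to 32580 in the knockdown libraries. Synthetic ERCC spike-ins took 1.38 to 1.52% of all counts in the scramble and 1.18 to 1.24% in the knockdown libraries. The summed level of 8 hepatocyte markers, in length-corrected transcript units (TPM), lay at 81443 to 86949 in the scramble and 78944 to 91693 in the knockdown libraries, with Fgb (fibrinogen) called higher and Tat (tyrosine aminotransferase) lower. The target itself, Hnf1aos1, had normalized counts of 512, 491 and 620.3 in scramble replicates 1 to 3 and 278, 258 and 433 in knockdown replicates 1 to 3 (log2 fold change −0.74 with a standard error, SE, of 0.195, and an edgeR adjusted p = 0.0625), so no knockdown library reached the scramble range. DESeq2 gave the target an adjusted p = 0.00321, past the threshold that the edgeR value missed. Knockdown replicate 3 had the highest level of Hnf1aos1 in its group.

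Levels of different genes were compared in the deposited TPM, which divide by gene length. In the scramble group the order from high to low was Lcat, Mttp, Abca1, Lipc, Scarb1, Abcg5, Abcg8, Lpl, Abcg1 and Vldlr. The means ran from 306 ± 22.2 TPM for Lcat (SD, n = 3) to 0.916 ± 0.177 TPM for Vldlr (SD, n = 3), and no pair of neighbours in this order overlapped in the 3 scramble libraries. The order of the means was the same in the knockdown group. There the ranges of Mttp (158 to 181 TPM) and Abca1 (145 to 181 TPM) overlapped, as did those of Lipc (73.9 to 82.7 TPM) and Scarb1 (59.8 to 75.4 TPM), 4 genes whose ranges had been separate in the scramble group. Lpl stood at 11.3 ± 0.331 TPM in the scramble group (SD, n = 3), far below the liver's own lipase Lipc at 100.2 ± 6.64 TPM (SD, n = 3).

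**Figure D1:**
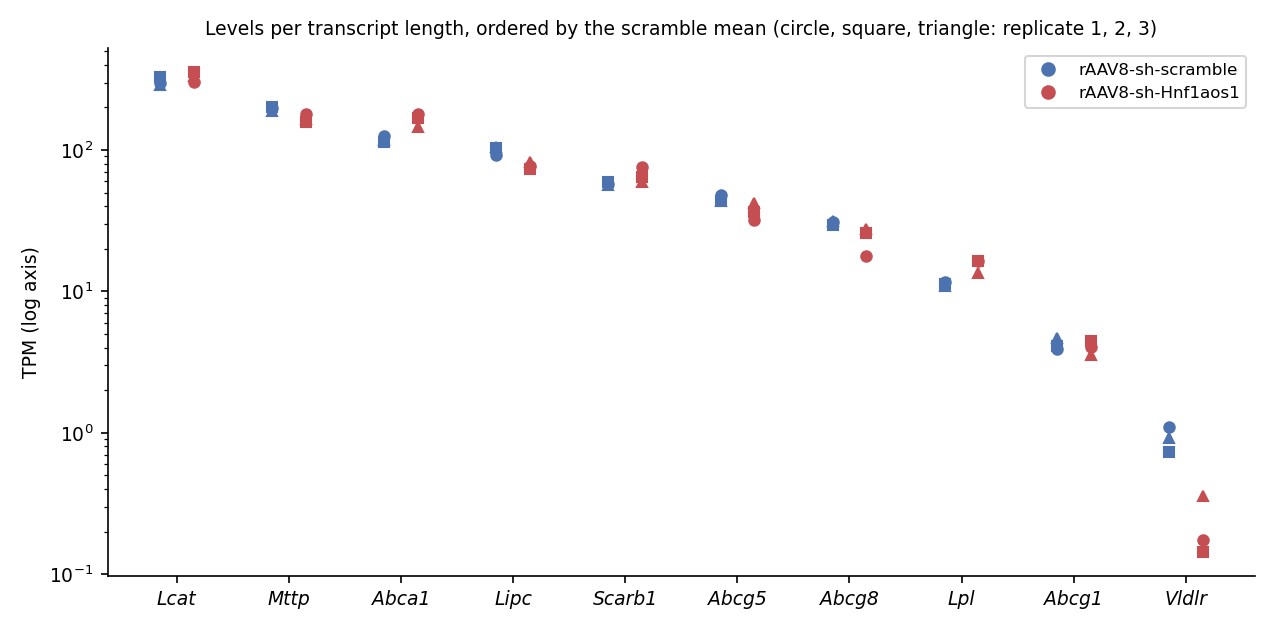
Level of each gene in TPM (log axis) in the 3 rAAV8-sh-scramble (blue) and 3 rAAV8-sh-Hnf1aos1 (red) livers, ordered by the scramble mean; each symbol is 1 library. Lcat stands highest and Vldlr lowest in both groups, and the red points of Vldlr lie below all its blue points.

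Counts were then scaled to library size by edgeR's TMM method, and a gene is said to be called when its p from the quasi-likelihood test of edgeR, adjusted by Benjamini and Hochberg's method across all 16327 genes, was under 0.05. Of the 10 genes, 1 was called lower (Vldlr) and 2 were called higher (Lpl and Abca1) in the knockdown livers, where 6.32% of all genes tested were called, 3.09% higher and 3.23% lower. An unadjusted p under 0.05 was reached by 5 of the 10 and by 23.4% of all genes. Vldlr was the 1 gene that also passed a log2 fold change of 1 in size, as 2.16% of all genes did. The groups did not overlap in 6 of the 10 (Vldlr, Lpl, Lipc, Scarb1, Abca1 and Abcg8), and in 28.9% of all genes. The median log2 fold change of the 10 was −0.07, against −0.000396 over all genes, with 5 of them above and 5 below 0. DESeq2 called the same 3 genes of the 10, where it called 7.59% of all genes. Vldlr, Lpl and Abca1 are also genes that the study picked on these libraries, so their calls are not independent evidence.

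**Figure D2:**
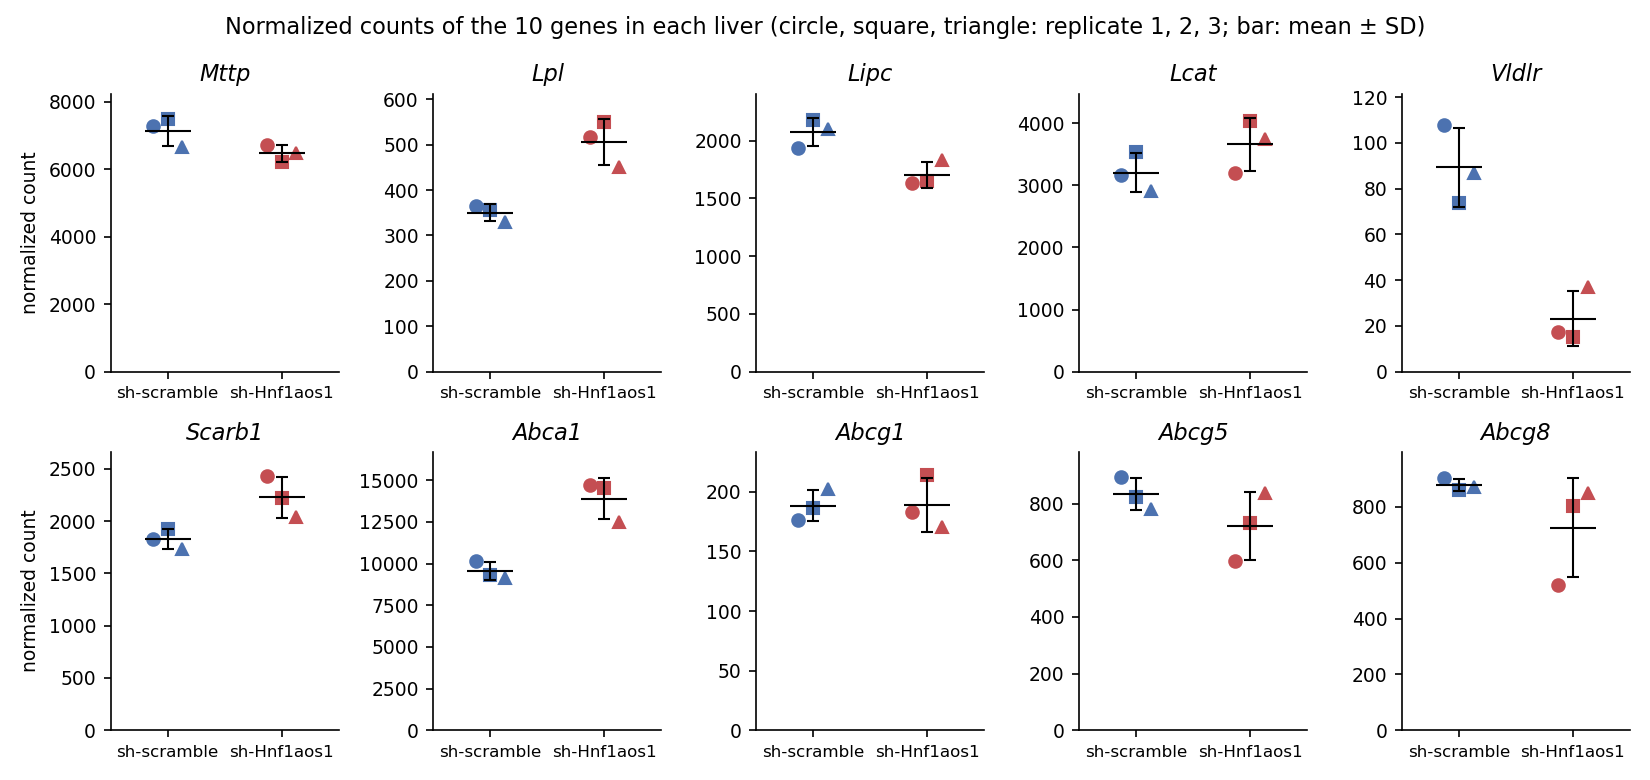
Normalized counts (vertical axes from 0) of the 10 genes in each of the 6 livers, with the mean and SD of 3 libraries per group. The groups are apart for Vldlr, Lpl, Abca1, Scarb1, Lipc and narrowly for Abcg8, and the triangle, replicate 3, is the knockdown liver nearest to the scramble livers in these 6 panels.

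Vldlr showed the largest change of the 10 genes. Its normalized counts came to 108, 73.5 and 86.9 in scramble replicates 1, 2 and 3, and 17.2, 15.2 and 37.1 in knockdown replicates 1, 2 and 3. The highest knockdown liver, replicate 3, lay below the lowest scramble liver, and replicates 1 and 2 lay far lower still. The mean fell from 89.4 ± 17.2 to 23.2 ± 12.1 (SD, n = 3 each), a log2 fold change of −1.94 (SE 0.321, edgeR adjusted p = 0.00903), so its knockdown mean was 25.9% of its scramble mean. These values rest on 16 to 41 raw counts per knockdown library and 67 to 105 per scramble library. In bulk liver, fewer cells that express a gene and less of its RNA per cell cannot be told apart, here or for the genes that follow. The call was lost without scramble replicate 3 (log2 fold change −1.96, edgeR adjusted p = 0.0657), and without knockdown replicate 3 the change was −2.46. Adding 1 to the TPM before taking logs, which is more than the gene's own level, shrank it to −0.65.

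Within a library the ratio of 2 genes does not depend on how libraries are scaled, so 5 such ratios were compared between the groups with exact two-sided permutation tests, for which 3 against 3 allow no p below 0.1 (0.125 after Benjamini-Hochberg adjustment over the 5). The count of Vldlr per count of Scarb1 was 0.0588, 0.0382 and 0.0501 in the scramble livers, against 0.00707, 0.00685 and 0.0183 after knockdown. It was 5.03-fold lower after knockdown with no overlap (exact permutation test, p = 0.1). Of all genes tested, the one whose log2 profile over the 6 libraries, centred on its own mean, lay nearest to that of Vldlr was Car12, at a root mean square difference of 0.144.

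Vldlr lies on chromosome 19 of GRCm38 from 27216484 to 27254231 on the + strand, a protein-coding gene that shares no exonic base with another gene in GENCODE. Because it is the gene that fell most, 200 bases just upstream of it are shown (GRCm38, chr19:27216280-27216479, + strand, from RefSeq):

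Vldlr upstream: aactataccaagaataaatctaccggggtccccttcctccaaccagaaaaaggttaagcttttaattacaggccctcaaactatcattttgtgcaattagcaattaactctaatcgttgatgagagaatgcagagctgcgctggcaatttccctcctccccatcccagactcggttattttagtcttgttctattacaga

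These bases are 41.5% G and C. None of the 3 motifs searched here occurs in them, so no letter is in capitals. The motifs, read on both strands, were the DR4 repeat bound by LXR (AGGTCA, then any 4 bases, then AGGTCA), the DR1 repeat bound by PPAR and HNF4 (the same with 1 base between), and AGATAA, the letters read by GATA factors. The absence of these letters from this window says nothing about the factors.

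Scarb1, the HDL receptor, had a higher mean after knockdown without being called. It had normalized counts of 1832, 1926 and 1733 in the scramble livers, against 2429, 2221 and 2034 after knockdown. Each knockdown liver lay above each scramble liver, with replicate 3 the closest. The log2 fold change was 0.28 (95% interval 0.08 to 0.49, SE 0.0947, edgeR adjusted p = 0.0987), and the gene was called only with spike-in scaling and without knockdown replicate 3 (edgeR adjusted p of 0.00995 and 0.0429). Scarb1 lies on chromosome 5 of GRCm38 from 125277087 to 125341094 on the − strand.

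Of the 2 lipases, Lpl was called higher and Lipc was not called. Lpl had normalized counts of 364, 357 and 329 in the scramble livers, against 517, 549 and 451 after knockdown. All 3 knockdown livers stood above all 3 scramble livers. Its mean rose from 349.9 ± 18.6 to 506 ± 50.04 (SD, n = 3 each), a log2 fold change of 0.53 (SE 0.106, edgeR adjusted p = 0.0172) or 1.44-fold. Lipc, hepatic lipase, had 1939, 2181 and 2104 in the scramble livers, against 1629.8, 1651 and 1834 after knockdown. Every knockdown liver lay below every scramble liver, and the means were 2075 ± 124 and 1705 ± 112 (SD, n = 3 each). The log2 fold change of Lipc was −0.28 (95% interval −0.48 to −0.08, SE 0.0908, edgeR adjusted p = 0.0873), so it was not called, except with library totals and without knockdown replicate 3 (edgeR adjusted p of 0.0406 and 0.0486).

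As a ratio within each library, Lpl per Lipc was 0.188, 0.164 and 0.156 in the scramble livers, against 0.317, 0.333 and 0.246 after knockdown. The ratio was 1.75-fold higher after knockdown with no overlap (exact permutation test, p = 0.1, the smallest possible). The call of Lpl was lost when scramble replicate 2, scramble 3 or knockdown 2 was left out (edgeR adjusted p of 0.0537, 0.118 and 0.0733) and in limma's test of log2 TPM with 0.1 or 1 added (0.0587 and 0.0577), while its log2 fold change stayed between 0.42 and 0.73 over all settings. Lpl lies on chromosome 8 of GRCm38 (68880491 to 68907448, + strand) and Lipc on chromosome 9 (70798128 to 70952226, − strand).

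Lpl is also made by macrophages, muscle and adipose tissue, so the markers of these were measured in the same libraries. Of 11 macrophage markers 11 had a log2 fold change above 0, 10 did not overlap between the groups and 4 were called higher by edgeR (Adgre1, Clec4f, C1qa and C1qb), with a median of 0.45. DESeq2 did not call Adgre1 (adjusted p = 0.0748) but did call Cd5l and Marco (adjusted p of 0.000932 and 0.00426). Among all genes tested, 28.9% did not overlap and 3.09% were called higher. The summed level of the macrophage markers ran from 248 to 299 TPM in the scramble and from 303 to 396 TPM in the knockdown livers. Adipose markers summed to 29.1 to 44.0 TPM in the scramble and 21.8 to 29.6 TPM in the knockdown livers, where 1 of the 4 tested, Cfd, was called lower (log2 fold change −1.16, edgeR adjusted p = 0.0411). Skeletal muscle markers summed to 58.6 to 202 TPM in the scramble and 23.6 to 70.8 TPM in the knockdown livers, with 0 of 7 called by edgeR, 1 by DESeq2, 3 at an unadjusted p under 0.05, and 7 of 7 below 0. The part of these markers in the level of Lpl, or of the macrophage markers in that of Abca1 and Abcg1, which macrophages also express, was not tested.

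Sinusoidal endothelial markers, of interest because endothelium carries Vldlr in other tissues, summed to 161 to 166 TPM in the scramble and 135 to 159.9 TPM in the knockdown livers, with 0 of 8 called by edgeR or DESeq2 and 0 at an unadjusted p under 0.05. The sums did not overlap, and of the 8 log2 fold changes 1 was above 0 and 7 below. Stellate markers summed to 242 to 300.4 and 194 to 258 TPM, monocyte and neutrophil markers to 4.43 to 8.65 and 7.15 to 13.98 TPM, and lymphocyte markers to 8.44 to 12.0 and 9.40 to 10.6 TPM in the scramble and knockdown livers. In these 3 lists of 8 genes each, 8, 4 and 7 passed the filter on low counts. Of these edgeR and DESeq2 called 0, with 1, 0 and 1 genes at an unadjusted p under 0.05. The 4 monocyte and neutrophil markers tested had 3 log2 fold changes above 0 and 1 below. The stellate markers had 1 above and 7 below, and the lymphocyte markers 5 above and 2 below. The part of the endothelial markers in the level of Vldlr was not tested. Ly6g, a neutrophil marker, had a count of 0 in all 6 libraries. S100a8 and S100a9, of the same list, were named after their values were seen. S100a8 had raw counts of 1, 1 and 2 in the scramble livers, against 7, 11 and 4 after knockdown. S100a9 had 2, 1 and 0, against 12, 9 and 6. Both were too low to be tested.

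Lcat and Mttp, which esterify plasma cholesterol and assemble VLDL, were not called. Lcat, the gene of highest level among the 10, had normalized counts of 3163, 3528 and 2906 in the scramble livers, against 3200.4, 4035 and 3748 after knockdown, which overlapped (log2 fold change 0.19, 95% interval −0.05 to 0.44, edgeR adjusted p = 0.322). Mttp had 7275, 7469 and 6642 in the scramble livers, against 6715, 6214 and 6484 after knockdown. These overlapped as well, since scramble replicate 3 lay below knockdown replicate 1 (log2 fold change −0.14, 95% interval −0.35 to 0.07, edgeR adjusted p = 0.403). With spike-in scaling the change of Mttp was 0.06, and Lcat was called (log2 fold change 0.39, edgeR adjusted p = 0.0455). Lcat lies on chromosome 8 (105939551 to 105943382, − strand) and Mttp on chromosome 3 (138089854 to 138144968, − strand) of GRCm38, and 457 of the 6206 exonic bases of Mttp (7.36%) are also exonic in Trmt10a and 132 in Gm43691, both on the other strand, so reads there have no certain source unless strand was used in the counting.

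**Figure D3:**
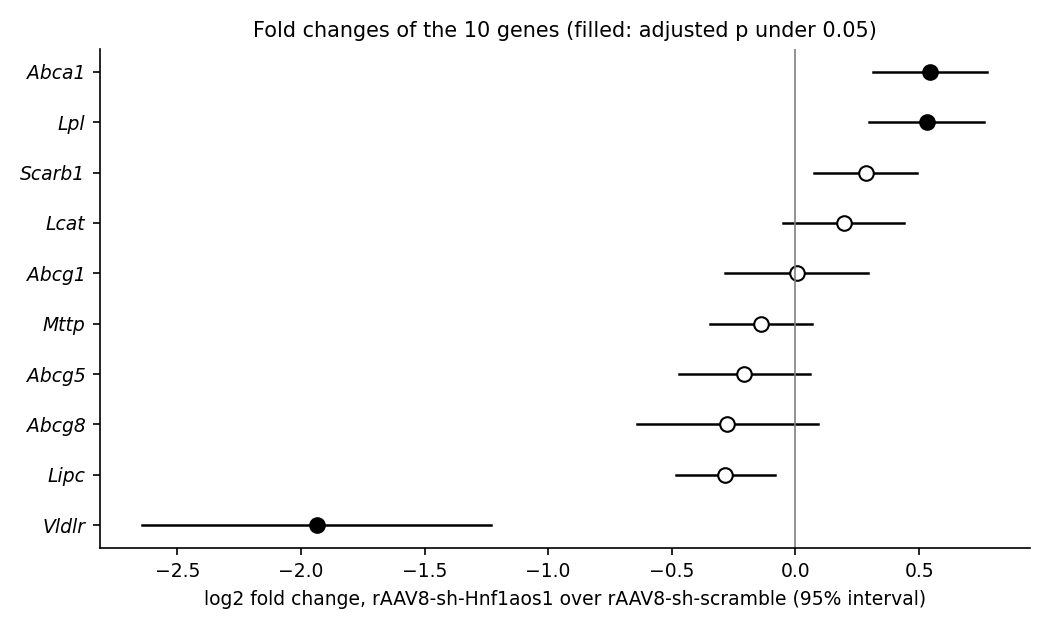
Log2 fold change (rAAV8-sh-Hnf1aos1 over rAAV8-sh-scramble) of each of the 10 genes with its 95% interval; filled points were called by edgeR. Abca1 and Lpl lie at 0.54 and 0.53, Vldlr at −1.94, and the other 7 between −0.28 and 0.28.

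Among the sterol exporters Abca1 alone was called. It had normalized counts of 10143, 9316 and 9134 in the scramble livers, against 14718, 14526 and 12466 after knockdown. The lowest knockdown liver, replicate 3, lay above the highest scramble liver. The mean rose from 9531 ± 538 to 13904 ± 1248 (SD, n = 3 each), a log2 fold change of 0.54 (SE 0.106, edgeR adjusted p = 0.0154) or 1.46-fold. The call was lost when scramble replicate 2, scramble 3 or knockdown 2 was left out (edgeR adjusted p of 0.0554, 0.102 and 0.0659), with log2 fold changes of 0.49 to 0.62 when 1 library was left out. Of all genes tested, the profile nearest to that of Lpl over the 6 libraries was that of Abca1 (root mean square difference 0.0440 on the log2 scale), and the one nearest to Abca1 was that of Trim25 (0.0424). Trim25 lay almost as near to Lpl (0.0471). Some gene is always nearest, so this description says nothing about shared control.

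Abcg1, the exporter to formed HDL, had normalized counts of 176, 187 and 202 in the scramble livers, against 183, 214 and 170.3 after knockdown. The knockdown livers spread on either side of the scramble livers. Its log2 fold change was 0.00 (95% interval −0.29 to 0.29, edgeR adjusted p = 0.989), and its sign differed between settings. The count of Abca1 per count of Abcg1 was 57.5, 49.9 and 45.1 in the scramble livers, against 80.4, 67.9 and 73.2 after knockdown, 1.46-fold higher after knockdown with no overlap (exact permutation test, p = 0.1, the smallest possible).

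Abcg5 and Abcg8, the bile exporter pair, had lower means after knockdown without being called. Abcg5 had normalized counts of 895, 822 and 782 in the scramble livers, against 597, 733 and 836 after knockdown. The groups overlapped, since knockdown replicate 3 lay above scramble replicates 2 and 3. Abcg8 had 904, 861 and 870.0 in the scramble livers, against 522, 803 and 850.5 after knockdown, where replicate 3 lay just below the scramble range and replicate 1 far below it. The spread of Abcg8 was wider in the knockdown group, 178 against 22.8 (SD, n = 3 each). The log2 fold changes were −0.21 for Abcg5 (95% interval −0.47 to 0.06, edgeR adjusted p = 0.329) and −0.28 for Abcg8 (95% interval −0.64 to 0.09, edgeR adjusted p = 0.341). Within a library the count of Abcg5 per count of Abcg8 stayed between 0.899 and 1.14, and the groups overlapped (exact permutation test, p = 0.5).

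The 3 LXR targets Abcg1, Abcg5 and Abcg8 had log2 fold changes of 0.00, −0.21 and −0.28 beside 0.54 for Abca1 and 0.53 for Lpl. Abca1 lies on chromosome 4 of GRCm38 (53030787 to 53159895, − strand), and Abcg1 (31057675 to 31117988, + strand), Abcg5 (84658234 to 84683011, − strand) and Abcg8 (84676302 to 84700333, + strand) on chromosome 17. Promoter windows of 300 bases from RefSeq, with 250 of them before the start, were matched for 7 of the 10 genes (10 windows); Lpl, Scarb1 and Abcg1 had no entry. No window of these genes held a DR4 or DR1 repeat with every letter right, which 0.0152% and 0.0396% of 32851 windows did. With up to 3 mismatches, a looser search chosen after seeing the data, 3 of the 10 windows held a DR4-like match (of Abca1, Lcat and Lipc), as did 21.9% of all windows. The match of Abca1, which starts 67 bases before the gene's start, is shown with 7 bases on either side because Abca1 was the exporter that rose. It is printed on the + strand of GRCm38 (chr4:53159940-53159969), opposite to the gene, with the DR4-like letters in capitals:

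Abca1 DR4-like site: agcgccgGGGTTACTACCGGTCAaacgctg

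Abcg5 and Abcg8 are transcribed away from each other, and the bases between the start sites of their RefSeq windows are shown because they lie upstream of both genes, which had lower means after knockdown. No exon is annotated there, though an intron of 1 longer Abcg8 transcript spans them. This stretch covers 109 bases on the + strand of GRCm38 (chr17:84683012-84683120), with matches of AGATAA on either strand in capitals:

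Abcg5-Abcg8 spacer: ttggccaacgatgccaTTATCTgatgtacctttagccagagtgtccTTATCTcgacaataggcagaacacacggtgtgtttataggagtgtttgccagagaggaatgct

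The 2 matches lie 93 and 63 bases before the start of Abcg8. AGATAA, also chosen after seeing the data, occurred in 4 of the 10 windows (1 each of Abcg5, Abcg8, Lcat and Lipc) and in 11.2% of all windows. The windows of Abcg5 and Abcg8 overlap and hold the same sites, so they are not separate matches. The gene models of Abcg5 and Abcg8 also share 82 exonic bases on opposite strands, 3.02% of Abcg5 and 2.19% of Abcg8, with the same doubt about the source of reads.

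The 10 genes work with many others, and 5 lists of such partners, 82 genes in all, were examined beside them. Over all genes tested, 3.09% were called higher and 3.23% lower by edgeR, and 23.4% had an unadjusted p under 0.05. Of 15 genes of lipoprotein assembly and secretion, 3 were called higher and 0 lower, with a median log2 fold change of 0.10. These were Vmp1, a membrane protein of the endoplasmic reticulum needed for lipoprotein release (0.80, SE 0.136, edgeR adjusted p = 0.0107), Pla2g12b, which is needed to load lipid onto VLDL (0.65, SE 0.102, edgeR adjusted p = 0.00680), and Sec24d, a coat protein of vesicles that leave the endoplasmic reticulum (0.38, SE 0.0935, edgeR adjusted p = 0.0392). Vmp1 is a gene that the study picked on these libraries. Without scramble replicate 3 none of the 3 was called, and with spike-in scaling 6 of the list were called higher.

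Of 16 other lipoprotein receptors and proteins of their trafficking, 1 was called higher and 0 lower, with a median of 0.00. It was Lsr, the lipolysis-stimulated lipoprotein receptor, with normalized counts of 1866, 2105 and 1793 in the scramble livers, against 2839, 2745 and 2282 after knockdown, which did not overlap (log2 fold change 0.45, SE 0.107, edgeR adjusted p = 0.0349). A share of 1 in 16 is near the 6.32% called among all genes. The list had 0 to 2 genes called higher over the settings, and 0 with library totals, with log2 TPM and whenever 1 library other than knockdown replicate 3 was left out.

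The 15 partners and regulators of Lpl had a median of −0.01, with 0 called by edgeR or DESeq2 and 1 at an unadjusted p under 0.05. The lowest p was that of Angptl4, which inhibits Lpl. Its normalized counts came to 1203, 1671 and 1244 in the scramble livers, against 404, 542 and 1038 after knockdown, with no overlap (log2 fold change −1.05, SE 0.401, edgeR adjusted p = 0.211). Lmf1, which matures Lpl, came next with a log2 fold change of 0.26 (edgeR adjusted p = 0.251).

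Of 19 genes of HDL remodelling and sterol transport, 18 were tested, with a median of −0.05. edgeR called 0, with 7 at an unadjusted p under 0.05, and DESeq2 called 1 higher and 3 lower. Over all genes, 23.4% had an unadjusted p under 0.05 and DESeq2 called 7.59%. The lowest p were those of endothelial lipase, Lipg (log2 fold change −0.85, SE 0.221, edgeR adjusted p = 0.0567), and Apoa1, the acceptor of cholesterol from Abca1 (0.41, SE 0.115, edgeR adjusted p = 0.0581). In both the groups did not overlap.

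Of 17 LXR partners and other sterol regulators, 0 were called higher and 1 lower, with a median of −0.07. DESeq2 called 1 higher and 2 lower, with Rxra, the partner of LXR in binding DNA, higher (log2 fold change 0.35, adjusted p = 0.0279 from DESeq2 and 0.0686 from edgeR) and Nr0b2, a corepressor, lower (log2 fold change −0.81, adjusted p = 0.0149 from DESeq2 and 0.237 from edgeR). Srebf1, an LXR target that drives fatty acid synthesis, had 3641, 4035 and 4396 normalized counts in the scramble livers, against 2866, 2519 and 2801 after knockdown and did not overlap (log2 fold change −0.56, SE 0.101, edgeR adjusted p = 0.0111). The study picked Srebf1 on these libraries as well, and no gene of the list was called lower without scramble replicate 3 or knockdown replicate 2. Of the receptors themselves, Nr1h3 (LXR alpha) had a log2 fold change of 0.19 (edgeR adjusted p = 0.246) and Nr1h2 (LXR beta) 0.11 (edgeR adjusted p = 0.578). Nr1h3, Nr1h2, Rxra and Nr0b2 were named after their values were seen.

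**Figure D4:**
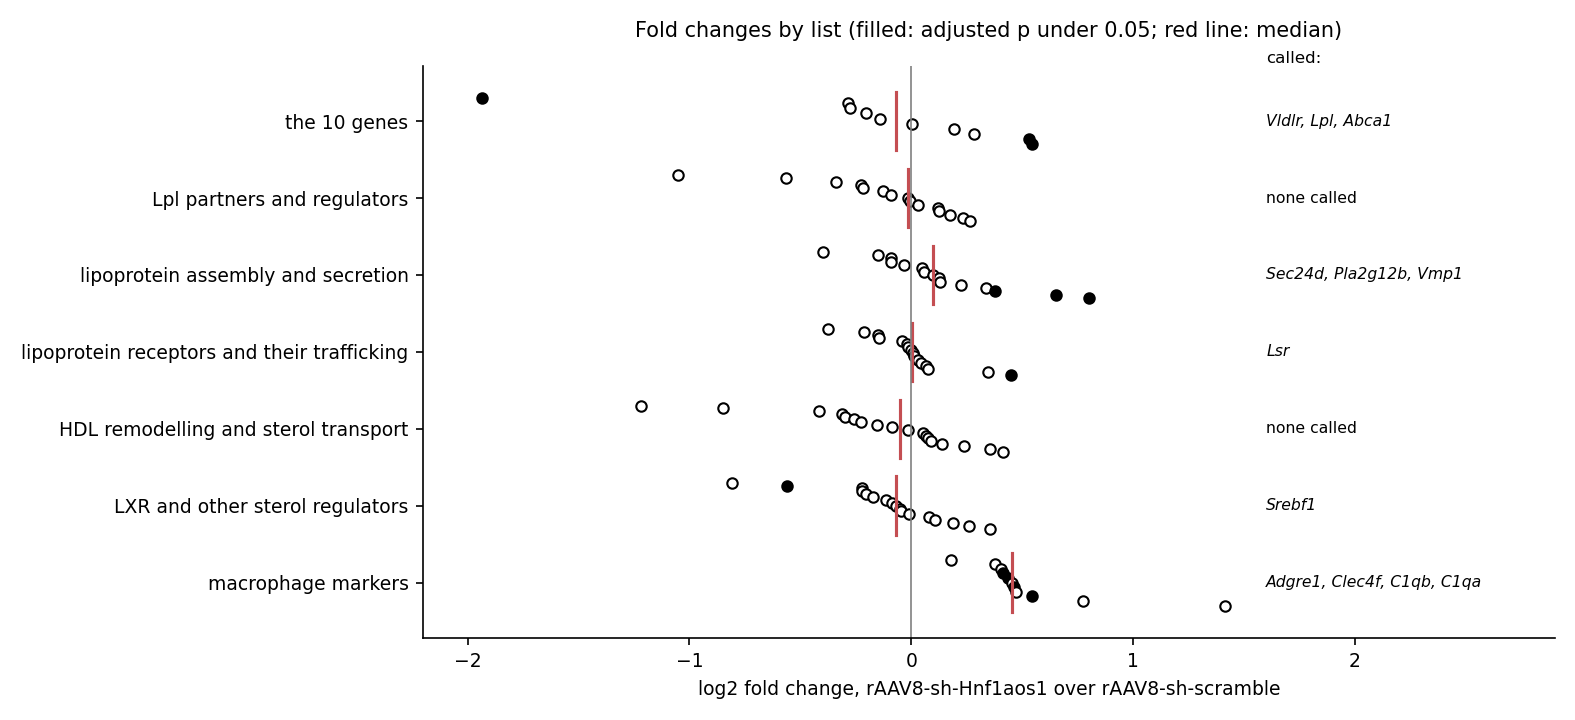
Log2 fold change of each tested gene in the 10 genes, the 5 partner lists and the macrophage markers; filled points were called by edgeR and are named at the right, and red lines are list medians. The partner lists centre near 0 with 5 genes called in all, and the macrophage markers centre at 0.45. Of the 8 marker lists only this one is drawn. Medians of the 8 ran from −1.28 (skeletal muscle) to 0.50 (monocyte and neutrophil).

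With 1 library left out at a time, from 0 (without scramble replicate 3) to 5 of the 10 genes (without knockdown replicate 3) were called. Without knockdown replicate 3 the called genes were Vldlr, Lpl, Abca1, Lipc and Scarb1, where 11.2% of all genes were called, and without scramble replicate 3 the share of all genes fell to 0.619%. Spike-in scaling moved the median of all genes by 0.20 on the log2 scale, and relative to that median the change was −1.93 for Vldlr, 0.53 for Lpl and 0.54 for Abca1.

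**Figure D5:**
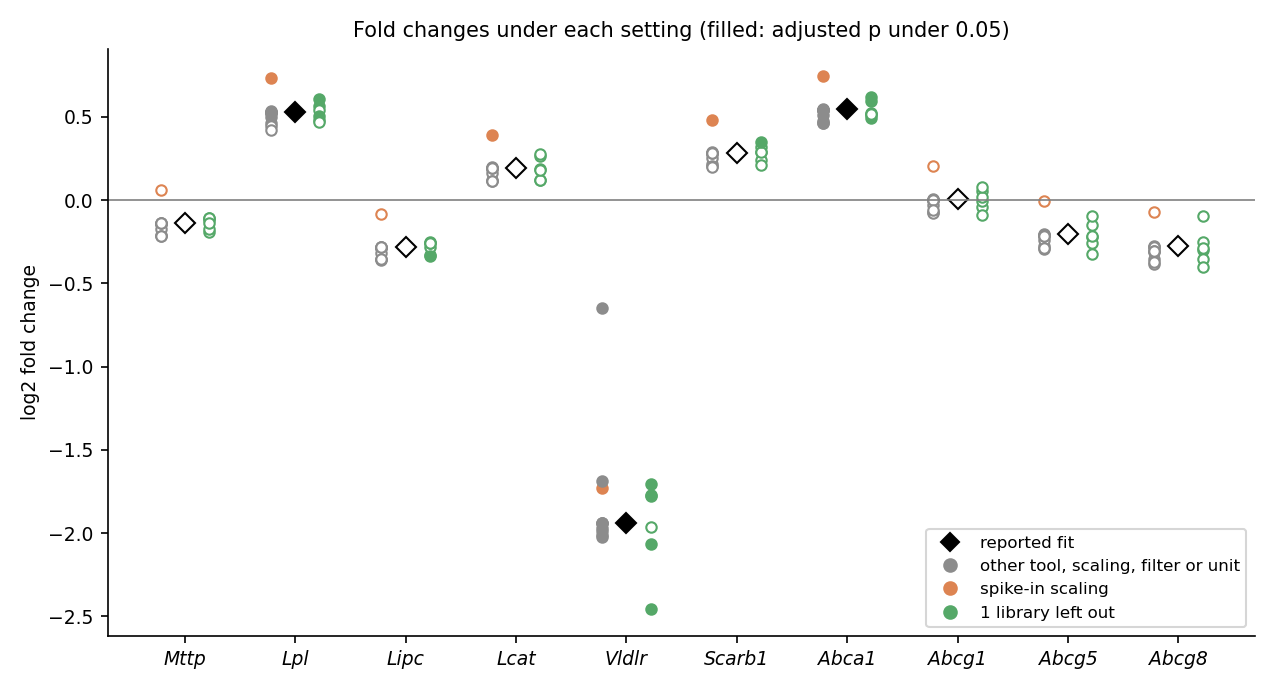
Log2 fold change of the 10 genes in the reported fit (diamonds), with another tool, scaling, filter or unit (grey; spike-in scaling orange) and with 1 library left out (green); filled points have an adjusted p under 0.05. Vldlr stays below 0 and Lpl, Abca1, Scarb1 and Lcat above 0 in every setting drawn, whereas Abcg1 lies on either side of 0 and Mttp crosses 0 with spike-in scaling.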

How the data were processed

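RNA-seq of liver from 6 mice was analysed, grouped by the sample titles. The authors trimmed reads with Trimmomatic, aligned them with STAR, and used featureCounts to count exonic reads that mapped once. The paper names GRCm38, and the submitters' processing notes name GRCm39. The paper describes poly(A) selection with a stranded kit and the labels name rRNA depletion instead. The strand setting and annotation are not given in the sources used here. The deposited raw counts are whole numbers without normalization, and the deposited TPM values, made by the authors in a way that is not described, have the same total in every library. The authors' normalized counts and their comparison (log2 fold changes and p-values from DESeq2) were not used.

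The 92 spike-in rows entered neither library sizes nor tests. In R 4.3.3 with edgeR 4.0.16, counts were scaled by TMM, filtered by filterByExpr and compared with robust quasi-likelihood fits that held only the group, followed by adjustment after Benjamini and Hochberg. Counts were divided by each library's effective size, set relative to the mean, to give the normalized counts printed. Standard errors are those that give the test's F, and 95% intervals use its degrees of freedom. DESeq2 1.42.0 and limma 3.58.1 were alternatives, with 0.1 or 1 added to TPM. The scripts were tested on simulated data. Figures used matplotlib 3.10.9. Gene positions and exons are those of GENCODE M21 on GRCm38, matched by symbol.

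The genes and lists were chosen with earlier results of these data known. Named genes were the 10 members, the target, list genes called (or the 2 with the lowest p where none was), called or abundant markers, a marker at 0 in every library, and the nearest profile of each called member. Genes chosen otherwise are said to be so. A chi-square comparison of pairs of libraries within a group, averaged over genes, gave 7.80 to 32.4 across the pairs. Sampling noise gives about 1, so no library was a copy of another. Each library is from a separate mouse. Raw counts under 50 in each knockdown library limit the precision of Vldlr. Of the 5 ratios between genes, 1 is not reported here.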

Additional observations from a re-analysis of the deposited data

How the results depend on the processing

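Beside the reported 2 genes called higher and 1 lower, spike-in scaling called 4 higher, limma on log2 TPM (0.1 or 1 added) called 1 higher with either, and library totals called 2 lower. Leaving out 1 library gave 0 to 3 higher and 0 to 2 lower. Over 160 alternative values of the 10 fold changes, 137 kept their direction and their side of the threshold, 5 gained a call, 9 lost one and 9 changed sign. The sign changes were Mttp with spike-in scaling (0.0605) and Abcg1 with library totals (−0.0691), a minimum mean of 50 counts (−0.0275), limma's voom (−0.000355), log2 TPM (−0.0746 with 0.1 added, −0.0612 with 1) and some left-out libraries. With 1 library left out, Abcg1 ran from −0.0898 to 0.0778, so not every such fit changed its sign. The log2 ratio of Abcg5 to Abcg8 differed by 0.0907, and by −0.000331 (without knockdown replicate 1) to 0.163 with 1 library left out. A DR4-like match with 3 mismatches allowed was in 3 windows, against 0 with none or 1 allowed. Over all genes, 505 higher and 527 lower calls (48.9% higher) became 3030 and 364 with spike-ins (89.3%), 319 and 729 with library totals (30.4%), 200 and 394 or 204 and 437 with log2 TPM (33.7% and 31.8%), 870 and 1032 without a filter, and from 38 and 65 to 1015 and 866 with 1 library left out; the cause was not tested. With the replicate number as a block, 429 and 449 genes and the same 3 of the 10 were called (adjusted p = 0.0167 for Vldlr, 0.0235 for Lpl and 0.0297 for Abca1 from edgeR's test). Deviations of same-numbered libraries correlated at no more than 0.0231. This gave no sign that the numbers pair the mice, but 3 libraries per group cannot exclude it.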

Other observations

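The following genes of HDL and VLDL were chosen after their values were seen, and edgeR called none of them. Pltp, which moves phospholipid between lipoproteins, had normalized counts of 789, 1429 and 1518 in the scramble livers, against 486, 432 and 687 after knockdown, with no overlap. Its log2 fold change was −1.22 (SE 0.313, edgeR adjusted p = 0.0902, 1.34e-06 from DESeq2). Apoa2, the second protein of HDL, had a log2 fold change of −0.42 (edgeR adjusted p = 0.0796, 0.0186 from DESeq2) beside 0.41 for Apoa1 (0.00512 from DESeq2). Apob, the protein that Mttp lipidates, had a log2 fold change of 0.34 (SE 0.119, edgeR adjusted p = 0.113, 0.0216 from DESeq2), with no knockdown liver inside the scramble range. The study picked Apob on these libraries as well, so its DESeq2 call is not independent evidence. Apoa1 and Apoa2 are also among the genes and proteins that the study lists as dysregulated.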
